A study of Arabidopsis thaliana with 80 samples.

Results

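The AP2-like and TEMPRANILLO genes are transcriptional repressors that delay flowering. Here 8 of the 33602 genes in an expression table of Arabidopsis thaliana rosettes are described across every accession, collection and time of day. They are 6 AP2-like genes, SMZ (SCHLAFMÜTZE, AT3G54990), SNZ (SCHNARCHZAPFEN, AT2G39250), TOE1, TOE2 and TOE3 (TARGET OF EAT, AT2G28550, AT5G60120 and AT5G67180) and AP2 (APETALA2, AT4G36920), and the 2 TEMPRANILLO genes TEM1 (AT1G25560) and TEM2 (AT1G68840). They are listed by locus, with no threshold on their values, and all 8 passed the filter on low values that left 20871 genes for testing.

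The florigen gene FT is switched on in leaf veins and its protein moves to the shoot tip, where it starts flowering. AP2-like proteins and TEMPRANILLO proteins bind at FT and hold it down while a plant is young, and TEM proteins also repress genes of gibberellin synthesis. The microRNA miR172 pairs with AP2-like messages, blocks their translation and cuts them, and it builds up as the plant ages under the control of miR156 and its SPL targets. AP2 itself is best known as a floral organ identity gene.

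The plants were grown outdoors in pots in 1 common garden. They were Bon, Moj and Vel, which are natural accessions from southern Spain, and Col-0, the reference accession, with no transgene or treatment named in the labels. Rosettes of 5 plants were pooled for each library, roots were removed, and stalks were removed at the reproductive stage, so a library is a mean over leaves and shoot tip. Libraries labelled morning were taken from 10:00 and those labelled evening in the afternoon, up to 16:00, in collections ex1, ex2, ex3 and ex4. Bon and Moj have libraries in ex1 to ex3, and Col-0 and Vel in all 4. The labels name vegetative, inductive and reproductive stages but do not pair them with the collections, and the tag that holds ex1 to ex4 is named extraction, so a stage, a date and an extraction batch cannot be told apart in any comparison between collections.

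Of 80 libraries, 79 were used, in 28 groups of accession, collection and time, 23 of them with 3 libraries and 5 with 2. The library labelled Moj ex3 morning replicate 1 was left out. Over all genes it correlated at 0.984 with a Vel ex3 morning library and at 0.928 and 0.920 with the other libraries of its own label. Values are on a log2 scale and normalized for gene length, so levels can be compared between genes, and a value of 0 means that no expression was listed. The table holds no counts, so sequencing depth is unknown, and between 20428 and 22858 genes were above 0 in a library. Replicates are pools from 1 garden, so p-values measure the spread between those pools. Where libraries are said not to overlap, the share of all genes without overlap was not counted. The leaf marker RBCS1A was at least 10.9 in every library. Its median level was, after rounding, the highest value in the table, and so was the highest level of LHCB1.3, another leaf marker. The numbers read as quantile normalized, which fixes the top value in every library. A change in a marker at that value, or in a sum that holds it, can therefore be hidden. The summed level of 4 leaf markers, back-transformed, was 19398 to 20591 in Col-0 ex1 and 4547 to 15593 in Col-0 ex4, and in each accession 2 of the 4 were lower in ex2 than in ex1. Of the root markers, CEP5 was listed at 0 in 70 of the 79 libraries and CASP1 in 57, while PYK10 lay between 0.32 and 5.37 and SCR, which leaves also express, between 2.86 and 4.77. Fewer cells of a type and less RNA per cell cannot be told apart in such pools.

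The 6 AP2-like genes carry the miR172 target site, which is the feature that sets them apart from TEM1 and TEM2. Mature miR172 sequences are shown with the seed, bases 2 to 8, in capitals, and the sites with capitals at each base that differs from the full complement of miR172a. All were read from the RefSeq annotation and genome of build TAIR10.1.
miR172a: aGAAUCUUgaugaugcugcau
miR172c: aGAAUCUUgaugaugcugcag
miR172e-3p: gGAAUCUUgaugaugcugcau
SMZ: TtgcagcatcatcaGgattcC
SNZ: TtgTagcatcatcaGgattcC
TOE1: CAgcagcatcatcaGgattct
TOE2: atgcagcatcatcaGgattct
TOE3: TGgcagcatcatcaGgattct
AP2: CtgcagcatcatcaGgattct

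The mature sequences of miR172b-3p and miR172d-3p are the same as those of miR172a and miR172c, and all 5 share 1 seed. Every site has a G in capitals at the same place, opposite base 7 of the miRNA and so inside the seed match, where it meets a U. TOE2 differs from the full complement at 1 base, AP2 at 2, SMZ, TOE1 and TOE3 at 3, and SNZ at 4. The sites lie on chr3:20373774-20373794 (minus strand, SMZ), chr2:16389066-16389086 (minus, SNZ), chr2:12226233-12226253 (minus, TOE1), chr5:24210889-24210909 (plus, TOE2), chr5:26802175-26802195 (minus, TOE3) and chr4:17403019-17403039 (plus, AP2). They fall in the coding sequence of the annotated transcripts of SMZ, TOE3 and AP2, and in the coding sequence or the 3′ UTR of those of SNZ, TOE1 and TOE2, depending on the transcript. The site is annotated in 1 of 2 SMZ transcripts and in 1 of 4 TOE3 transcripts, and the table does not separate transcripts. The best match in TEM1 and in TEM2 differs at 8 of 21 bases.

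Over all collections together, TOE1 had the highest median level of the 8 genes and SMZ and TOE3 the lowest. Over the 79 libraries the TOE1 level had a median of 6.34 log2 units (5.09 to 7.55), and it was above TEM1, the next gene, in 79 of 79. TEM1 had a median of 4.85 (2.81 to 6.14) and was above AP2 in 69 libraries. Below these the order is loose. AP2 had a median of 4.01 (2.32 to 5.16), SNZ 3.89 (2.43 to 5.64) and TEM2 3.58 (1.62 to 5.41), and AP2 was above SNZ in 49 libraries and SNZ above TEM2 in 46. TOE2 followed at 3.16 (2.24 to 4.71), SMZ at 2.90 (1.22 to 5.72) and TOE3 at 2.76 (1.46 to 4.12), and SMZ was above TOE3 in 38 libraries. In ex1 SNZ was the second gene, above TEM1 in 21 of 22 libraries. By median, AP2 ranked 7 in ex1 and 3 in ex2, ex3 and ex4. SMZ ranked 4 in ex1 and 8 in ex2, ex3 and ex4. TOE3 ranked 8 in ex1, 7 in ex2 and 6 in ex3 and ex4.

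**Figure D1:**
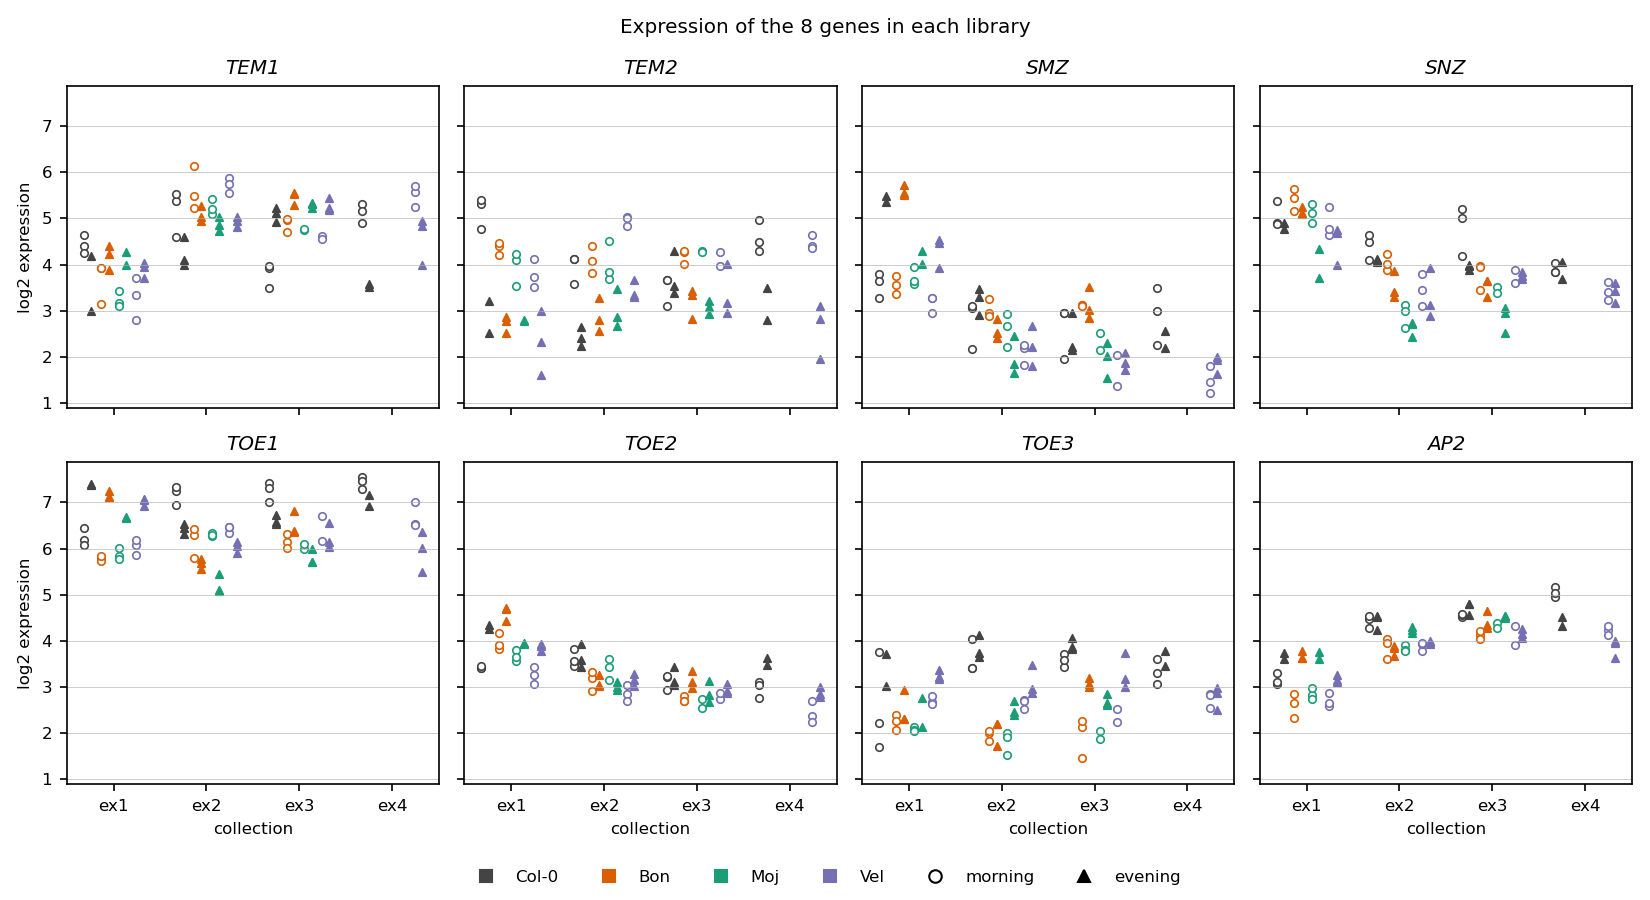
Level of each of the 8 genes (log2 units, vertical axis) in every library used, by collection and accession, with open circles for morning and filled triangles for evening. SMZ and SNZ are highest in ex1, AP2 is lowest there, and TEM2 morning values lie above evening values in most groups.

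Between ex1 and ex2, SMZ and SNZ fell and AP2 and TEM1 rose in all 4 accessions, and TOE2 fell in Bon, Moj and Vel and, less firmly, in Col-0. Of the 8 genes, 7 changed in Col-0, 6 in Bon, 6 in Moj and 7 in Vel, beside 58.0%, 68.8%, 70.7% and 70.1% of all genes tested. The median difference of the 8 genes was -0.12, -0.46, -0.31 and -0.20 log2 units, beside 0.00, -0.04, -0.05 and -0.02 over all genes tested.

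SMZ encodes a repressor that acts at FT in leaves. In Col-0 its ex1 levels were 3.80, 3.27 and 3.64 in the morning and 5.36 and 5.49 in the evening. Its ex2 levels were 3.07, 3.10 and 2.16 in the morning and 3.30, 3.48 and 2.90 in the evening. No ex2 library of Col-0 reached an ex1 library of the same time of day. SMZ fell everywhere, with changes of -1.49 ± 0.20 (Col-0), -1.77 ± 0.19 (Bon), -1.65 ± 0.20 (Moj) and -1.58 ± 0.19 (Vel) log2 units, each ± SE (limma adjusted p from 4.0e-12 to 6.2e-09). All 8 differences between group means were below 0, at -0.52 to -1.13 log2 units in the morning and -2.07 to -3.01 in the evening. The size of the fall did not differ between accessions past the threshold (limma F test, adjusted p = 0.815).

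SNZ is the closest relative of SMZ. In Bon its ex1 levels were 5.64, 5.44 and 5.16 in the morning and 5.13, 5.25 and 5.10 in the evening. Its ex2 levels there were 3.88, 4.22 and 4.01 in the morning and 3.86, 3.31 and 3.41 in the evening. The collections did not overlap in Bon, and in Col-0 they lay closer, at 4.78 to 5.39 in ex1 and 4.07 to 4.64 in ex2. SNZ fell, with changes of -0.69 ± 0.17 (Col-0), -1.50 ± 0.16 (Bon), -1.79 ± 0.17 (Moj) and -1.30 ± 0.16 (Vel), and a limma adjusted p from 2.6e-14 to 3.1e-04. Each Spanish accession fell further than Col-0, with a difference of -0.81 for Bon (limma adjusted p = 0.00431), -1.10 for Moj (1.8e-04) and -0.61 for Vel (0.0329). The Vel difference is -0.50 to -0.59 and misses the threshold when any 1 of 11 libraries is left out.

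TOE2, which with TOE1 delays flowering through FT, had its clearest fall in Bon. Its levels there were 4.18, 3.82 and 3.92 in the morning and 4.71, 4.69 and 4.44 in the evening of ex1. In ex2 they were 2.92, 3.20 and 3.32 in the morning and 3.25, 3.02 and 3.04 in the evening. The 2 collections did not overlap. TOE2 changed by -1.16 ± 0.10 in Bon (limma adjusted p = 3.4e-16), by -0.60 ± 0.10 in Moj and by -0.56 ± 0.10 in Vel. The Col-0 change of -0.23 ± 0.10 (limma adjusted p = 0.0413) was lost when any 1 of 9 libraries was left out, and there the morning means differed by 0.19 and the evening means by -0.66. Bon differed from Col-0 by -0.93 ± 0.14 in this step (limma adjusted p = 3.6e-07).

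AP2 moved the other way. Its ex1 levels in Col-0 were 3.07, 3.10 and 3.31 in the morning and 3.74 and 3.62 in the evening, and its ex2 levels 4.47, 4.29 and 4.53, then 4.24, 4.53 and 4.51. All 6 ex2 libraries lay above all 5 ex1 libraries. AP2 rose by 0.77 ± 0.09 in Moj, 0.69 ± 0.08 in Bon, 0.99 ± 0.08 in Vel and 1.01 ± 0.09 in Col-0 (limma adjusted p from 2.4e-16 to 4.0e-11). AP2 is active in young flowers, and none of the 7 flower organ markers rose in Col-0 or Vel between these collections (limma adjusted p under 0.05, and 0 of 7 also at an unadjusted p under 0.05), while 6 rose in Bon and 4 in Moj. The summed level of these markers, back-transformed from log2, was 0 to 0.327 in Col-0 ex1, 0.0942 to 2.36 in Col-0 ex2, 0.448 to 1.18 in Vel ex1 and 0.269 to 1.80 in Vel ex2. In Bon it went from a range of 0.223 to 1.23 to one of 4.84 to 23.4, and in Moj from 0.599 to 1.47 to 0.705 to 9.83. Many of these sums lie near 0, and the part of flower tissue in the AP2 values was not tested in any accession.

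TOE1 depended on the time of day in this step. Its morning mean was higher in ex2 than in ex1 by 0.38 to 0.94 log2 units in the 4 accessions, while its evening mean differed by -0.95 to -1.48. Over both times TOE1 fell in Bon (-0.55 ± 0.11), Moj (-0.52 ± 0.12) and Vel (-0.30 ± 0.11), with limma adjusted p = 1.6e-05, 9.7e-05 and 0.0135, and was not called in Col-0 (-0.01 ± 0.12). TOE3, which has been tied to flower patterning, rose by 0.76 ± 0.19 in Col-0 (limma adjusted p = 6.1e-04; 0.47 and 0.137 without the replicate 1 libraries) and was not called in the other 3 accessions (-0.38 to -0.10). The differences from Col-0 in this step were called in Bon (-1.14), Moj (-0.86) and Vel (-0.87), and the Vel call is lost without Col-0 ex1 evening replicate 1 and the Moj call without it or without Moj ex1 evening replicate 2. The Col-0 ex1 levels of TOE3 were spread widely, at 1.70, 2.23 and 3.77 in the morning and 3.01 and 3.72 in the evening.

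TEM1 rose in all 4 accessions. In Vel its ex1 levels were 2.81, 3.35 and 3.72 in the morning and 4.04, 3.95 and 3.72 in the evening, and its ex2 levels were 5.87, 5.56 and 5.75, then 5.04, 4.95 and 4.82. No Vel library of ex2 overlapped with ex1. TEM1 rose by 1.73 ± 0.16 in Vel, 1.43 ± 0.16 in Bon, 1.38 ± 0.17 in Moj and 0.69 ± 0.17 in Col-0 (limma adjusted p from 6.9e-14 to 6.4e-04). The Col-0 evening libraries of ex1 were 3.003 and 4.19, and without the first, replicate 1, the Col-0 rise is 0.39 (limma adjusted p = 0.0748). Compared with Col-0 the rise was larger by 0.69 in Moj, 1.05 in Vel and 0.75 in Bon (limma adjusted p = 0.0233, 5.5e-04 and 0.0130). Without the evening library at 4.19, replicate 3, the Bon and Moj differences are 0.45 and 0.39 and miss the threshold (limma adjusted p = 0.164 and 0.225).

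TEM2, the close paralogue of TEM1, went in opposite directions. It fell by 0.83 ± 0.21 log2 units in Col-0 (limma adjusted p = 7.1e-04) and rose by 1.15 ± 0.20 in Vel (1.0e-06). Bon (-0.05) and Moj (0.13) were not called. In Col-0 the morning levels were 5.31, 4.76 and 5.41 in ex1 and 3.58, 4.12 and 4.13 in ex2, while in Vel they were 3.51, 3.74 and 4.12, and from 4.85 to 5.03 in ex2. The morning levels of the 2 collections did not overlap in either accession, and the difference between Vel and Col-0 was 1.97 ± 0.29 (limma adjusted p = 3.7e-07). Tests of the step against Col-0 share the Col-0 libraries. They called 7 of the 8 genes in Bon, 6 in Moj and 4 in Vel, beside 31.4%, 36.5% and 33.0% of all genes. Several of these calls rest on single libraries. In Bon the calls of AP2 (-0.31) and TEM2 (0.78) are lost without any 1 of 11 and of 9 libraries. In Moj those of TOE2 (-0.37) and TEM1 (0.69) are lost without any 1 of 8 and of 3. The Moj call of TEM2 (0.96) is lost without Col-0 ex1 evening replicate 3. A limma F test across the 4 accessions called 7 of the 8, all but SMZ, beside 51.9% of all genes.

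**Figure D2:**
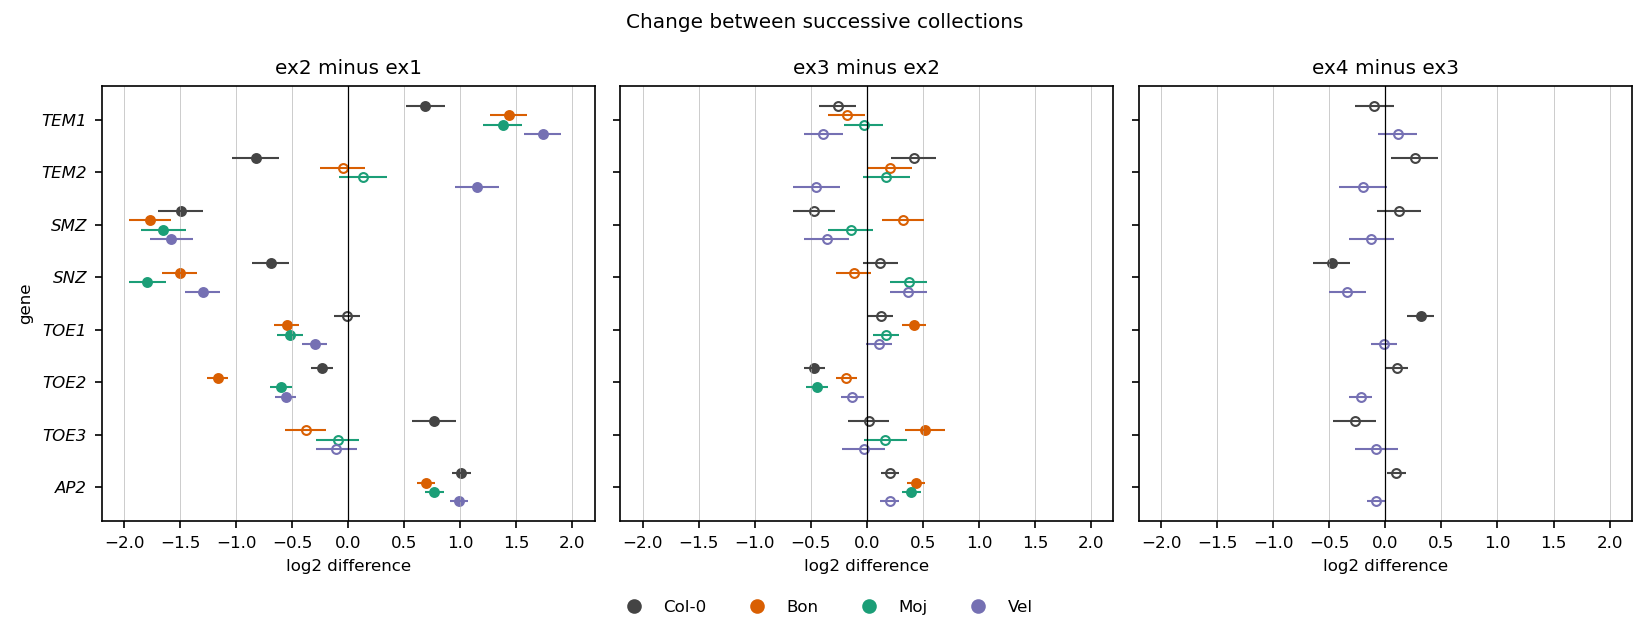
Difference between successive collections (log2 units, bars are SE) for each gene in each accession, morning and evening weighted equally, with filled symbols where the limma adjusted p was under 0.05. Falls of SMZ and SNZ and rises of AP2 and TEM1 from ex1 to ex2 are seen in all 4 accessions, and fewer symbols are filled in the later steps.

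Averaged over morning and evening, fewer of the 8 genes were called in the later steps. From ex2 to ex3, 1 of the 8 changed in Col-0, 3 in Bon, 2 in Moj and 0 in Vel, beside 19.4%, 49.4%, 37.0% and 6.89% of all genes. In Vel 4 of the 8 had an unadjusted p under 0.05, and with array weights 3 passed. Array weights also raised the count over all genes in that step, from 1438 to 3733. Percentages of all genes are at the adjusted threshold, and the share at an unadjusted p under 0.05 was not counted. TOE2 changed by -0.47 ± 0.10 in Col-0 and by -0.45 ± 0.10 in Moj (limma adjusted p = 2.1e-04 and 3.3e-04). Without the libraries of replicate 2 these TOE2 changes are -0.36 and -0.34, and both calls are lost. AP2 rose by 0.44 ± 0.08 in Bon and 0.40 ± 0.09 in Moj, and TOE1 by 0.42 ± 0.11 and TOE3 by 0.52 ± 0.18 in Bon, the last lost without either of 2 libraries. One step differed from Col-0 here, that of SMZ in Bon, by 0.80 ± 0.27 (limma adjusted p = 0.0220), and it misses the threshold without either of 2 libraries. In Bon 1 of 8 was called, beside 26.3% of all genes, and in Moj and Vel 0 of 8, beside 16.3% and 1.61%; at an unadjusted p under 0.05 these last counts were 0 and 2. The F test across accessions called 0 of 8 by limma, beside 34.5% of all genes, with 3 at an unadjusted p under 0.05. From ex3 to ex4, SNZ fell by 0.48 ± 0.17 log2 units and TOE1 rose by 0.31 ± 0.12 in Col-0 (2 of 8, beside 53.8%), and each call is lost without either of 2 libraries. In Vel 0 of 8 changed by limma, beside 30.7%, with 2 at an unadjusted p under 0.05. The Vel step differed from the Col-0 step for 0 of 8 genes, beside 14.6%, with 1 at an unadjusted p under 0.05. These means hide opposite differences at the 2 times of day: for TEM1 the differences between group means ran from -1.37 to 0.85 log2 units between ex2 and ex3 and from -1.53 to 1.33 between ex3 and ex4, and for TEM2 in the latter step from -0.75 to 1.11.

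Morning and evening were compared within each collection. Evening minus morning was called for 8 of the 8 genes in ex1, 5 in ex2, 6 in ex3 and 5 in ex4, beside 47.8%, 66.8%, 58.6% and 48.9% of all genes. The ex4 comparison rests on Col-0 and Vel. Groups hold 2 or 3 libraries, and the share of all genes whose times do not overlap was not counted. The counts of no overlap below therefore only describe the 8 genes. Leaf markers moved with time of day too: of 4, 0 were lower in the evening in ex1 (0 also at an unadjusted p under 0.05, by limma), 2 in ex2, 3 in ex3 and 3 in ex4, with a median difference of -0.08, -0.42, -1.56 and -1.96 log2 units. Because RBCS1A and LHCB1.3 reach the top value of the table, the ex1 count cannot show that leaf content was steady. The part of the leaf markers in the evening differences of the 8 genes was not tested.

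TEM2 was lower in the evening in every collection, with a difference of -1.64 ± 0.15 log2 units in ex1, -1.31 ± 0.14 in ex2, -0.67 ± 0.15 in ex3 and -1.64 ± 0.21 in ex4 (limma adjusted p from 3.1e-14 to 1.1e-04). In Bon ex2 its levels were 4.08, 3.82 and 4.41 in the morning and 2.57, 3.27 and 2.79 in the evening. In 12 of the 14 pairs of groups the 2 times did not overlap. The exceptions were in ex3, where Col-0 levels were 3.67, 3.66 and 3.11 in the morning and 3.53, 3.39 and 4.30 in the evening, and Vel levels 3.97 and 4.27, then 4.01, 2.96 and 3.17.

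TEM1, unlike TEM2, changed direction. The evening difference was 0.77 ± 0.12 in ex3, -0.66 ± 0.12 in ex2 and -1.24 ± 0.17 in ex4 (limma adjusted p = 3.2e-07, 1.6e-06 and 2.6e-08). In Col-0 ex2 the morning levels were 4.60, 5.38 and 5.53 and no evening level was above 4.59. In Col-0 ex3 they were 3.93, 3.97 and 3.49, then 4.92, 5.11 and 5.22, and the order of the times is turned with no overlap in either collection. The change of the evening difference from ex2 to ex3 was 1.43 ± 0.17 (limma adjusted p = 1.9e-09). The ex1 difference of 0.30 ± 0.12 (limma adjusted p = 0.0413) is 0.15 to 0.29 and lost when any 1 of 12 libraries is left out, and 1 of the 4 accessions, Col-0, went the other way.

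TOE1 turned between ex1 and ex2. In Col-0 ex1 its levels were 6.19, 6.09 and 6.44 in the morning and 7.40 and 7.37 in the evening, and in Col-0 ex2 they were 7.25, 6.94 and 7.33, then 6.32, 6.44 and 6.54. Evening was above morning with no overlap in 4 of 4 accessions in ex1 and below it with no overlap in 4 of 4 in ex2. The evening difference was 1.08 ± 0.08 in ex1, -0.68 ± 0.08 in ex2 and -0.56 ± 0.12 in ex4 (limma adjusted p = 5.7e-17, 4.0e-11 and 6.6e-05), and -0.18 ± 0.08 in ex3 (0.0591), which passes with array weights (0.00862), with ex1 to ex3 alone (0.0359) or without the replicate 3 libraries (-0.25, 0.0390). The change from ex1 to ex2 was -1.75 ± 0.11 (limma adjusted p = 1.1e-19).

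SMZ, AP2 and TOE2 were higher in the evening in ex1, with no overlap in 4 of 4 accessions for each. In Bon ex1 SMZ levels were 3.55, 3.36 and 3.75 in the morning and 5.72, 5.55 and 5.50 in the evening. SMZ differed by 1.36 ± 0.14 over the 4 accessions (limma adjusted p = 3.1e-12), and by -0.12, -0.09 and -0.08 in ex2, ex3 and ex4, none of them called. AP2 differed by 0.72 ± 0.06 in ex1 (limma adjusted p = 1.1e-15), by 0.18 ± 0.06 in ex3, a call lost without Vel ex3 morning replicate 1, and by -0.50 ± 0.09 in ex4 (1.6e-06). TOE2 differed by 0.60 ± 0.07 in ex1, 0.21 ± 0.07 in ex3 and 0.51 ± 0.10 in ex4 (limma adjusted p = 2.0e-10, 0.00947 and 2.6e-05), and the ex3 value is 0.13 (0.192) without the replicate 1 libraries. SNZ was lower in the evening in ex1, ex2 and ex3 (-0.49, -0.32 and -0.42) and TOE3 higher (0.50, 0.36 and 0.78), and neither was called in ex4. The SNZ call in ex2 is lost without the libraries of replicate 2 (-0.22) or of replicate 3 (-0.32). The TOE3 calls in ex1 and ex2 are lost without those of replicate 2 (0.38 and 0.27). In Vel ex3 the evening mean of SNZ was not lower (0.02).

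The evening difference changed between ex1 and ex2 for 5 of the 8 genes, between ex1 and ex3 for 6 and between ex2 and ex3 for 3, beside 59.0%, 54.5% and 36.3% of all genes. It was called for 6 of 8 by an F test over these collections, beside 71.6%, and across accessions for 3 of 8, beside 28.1%. SMZ, AP2 and TOE2 changed from ex1 to ex2 by -1.48, -0.62 and -0.62, and TEM1 by -0.96. For SNZ and TOE3 the change over the 3 collections was not called (limma F test, adjusted p = 0.572 and 0.111).

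**Figure D3:**
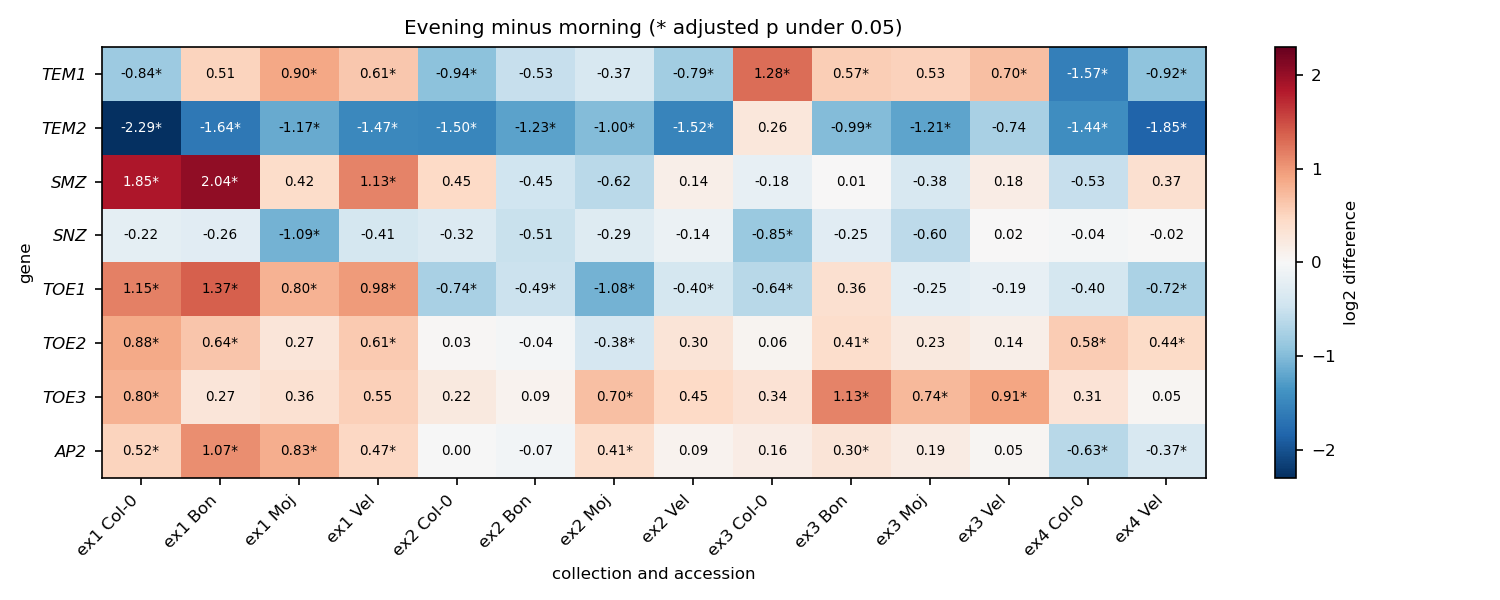
Evening minus morning (log2 units) for each gene in each accession and collection, as a colour with its value, starred where the limma adjusted p was under 0.05. TEM2 is lower in the evening in all groups but Col-0 ex3, and TOE1 is higher in ex1 and lower in ex2 in all 4 accessions.

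In the 300 bases from 250 before to 50 after the gene start, TOE1 holds 1 match to the CCA1-binding site AAAAATCT, named for a morning clock protein, and the other 7 genes hold none. That motif is found in 7.88% of 27443 promoters of the same length. The evening element AAAATATCT, which occurs in 2.82% of them, and the G-box CACGTG, in 7.68%, are in none of the 8. Both strands were searched and no match was tested for function.

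Against Col-0, most AP2-like genes were lower in the Spanish accessions once past ex1, and TEM1 was higher there except in Moj ex2, where it was not called. These comparisons share the Col-0 libraries. Reads of all accessions were aligned to TAIR10, the genome of the reference accession Col-0. The part of sequence differences between accessions in these values was not tested. In ex1, 4 of the 8 genes differed in Bon, 4 in Moj and 5 in Vel, beside 43.9%, 43.9% and 40.9% of all genes. In ex2 the counts were 6, 6 and 8, beside 54.3%, 54.8% and 51.8%. In ex3 they were 7, 6 and 7, beside 63.3%, 63.2% and 50.6%, and in ex4 Vel differed for 7, beside 52.9%.

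In Bon and Moj, TOE3 had the largest difference from Col-0 of the 8 genes in both ex2 and ex3. In ex2 its Col-0 levels were 3.42, 3.41 and 4.03 in the morning and 3.66, 3.73 and 4.12 in the evening. Bon levels were 1.83, 2.00 and 2.04, then 2.19, 2.21 and 1.73, all below every Col-0 library. TOE3 differed from Col-0 by -1.73 ± 0.18 (Bon), -1.56 ± 0.18 (Moj) and -0.86 ± 0.18 (Vel) in ex2 (limma adjusted p = 4.5e-12, 1.1e-10 and 6.9e-05), and by -1.23, -1.41 and -0.90 in ex3. The ex1 calls in Bon (-0.59) and Moj (-0.70) are lost without Col-0 ex1 morning replicate 3, the library at 3.77, where the differences are -0.29 and -0.40, and also without Col-0 ex1 evening replicate 3.

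TOE1 was lower than in Col-0 in all 10 comparisons, at -0.28 to -1.05 log2 units. In ex2 Moj levels were 6.33, 6.27 and 6.28 in the morning and 5.09, 5.11 and 5.44 in the evening, beside 6.94 to 7.33 and 6.32 to 6.54 in Col-0. At each time of day Moj was below Col-0 with no overlap. The Vel difference in ex1 (-0.28, limma adjusted p = 0.0455) was lost without any 1 of 7 libraries, and the Bon difference in ex1 (-0.34) without Col-0 ex1 morning replicate 3 (-0.29, 0.0538) or without all libraries of replicate 1, 2 or 3 (0.0575, 0.0543 and 0.0971). SNZ was not called in ex1 in any accession and was lower in ex2 (Bon -0.47, Moj -1.48 and Vel -0.87) and in ex3 (-0.71, -1.23 and -0.62). The Bon ex2 call is lost without the libraries of replicate 3 (-0.50), and the Vel ex3 call without those of replicate 1 (-0.42). The ex1 differences of 0.34 in Bon and -0.38 in Moj can become calls, at 0.42 and -0.54, when 1 library is left out.

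SMZ was lower in Vel than in Col-0 in all 4 collections, at -0.76, -0.84, -0.73 and -0.98 log2 units (limma adjusted p from 4.1e-05 to 0.00183). The ex1 call is lost without the libraries of replicate 3 (-0.64). In ex4 Vel levels were 1.22, 1.45 and 1.80 in the morning and 2.00, 1.63 and 1.94 in the evening, and Col-0 levels 2.26, 3.49 and 2.99, then 2.21 and 2.57, with no overlap. In Bon SMZ was higher than in Col-0 in ex3, by 0.60 ± 0.19 (limma adjusted p = 0.00484). That call is lost without the libraries of replicate 2 (0.44). AP2 was lower, at -0.21 to -0.68, in the 9 comparisons called, all but Moj ex1. The Moj ex3 value of -0.21 was lost without any 1 of 5 libraries. TOE2 was higher than in Col-0 in Bon ex1 (0.42, limma adjusted p = 4.7e-04) and lower in Bon ex2 (-0.51, 8.3e-06).

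TEM1 was not called in ex1, where Moj (-0.33) and Vel (-0.41, limma adjusted p = 0.0502) became -0.63 (0.00758) and -0.71 (0.00188) without Col-0 ex1 evening replicate 1. It was higher than in Col-0 in Bon and Vel in ex2 (0.65 and 0.63), in all 3 accessions in ex3 (0.73, 0.59 and 0.50) and in Vel in ex4 (0.71). The Vel ex3 call rests on Col-0 ex3 morning replicate 3 (limma adjusted p = 0.0502 without it). Without the libraries of replicate 2 the ex3 calls in Moj (0.66) and Vel (0.59) are lost. So is the ex4 call in Vel (0.57). TEM2 was lower in ex1 in Moj (-0.64, lost without either of 2 libraries) and Vel (-0.97), higher in Vel in ex2 (1.01 ± 0.20, limma adjusted p = 2.2e-05), and not called in ex3 or ex4. Its Vel ex1 call is lost without the libraries of replicate 3 (-0.64).

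**Figure D4:**
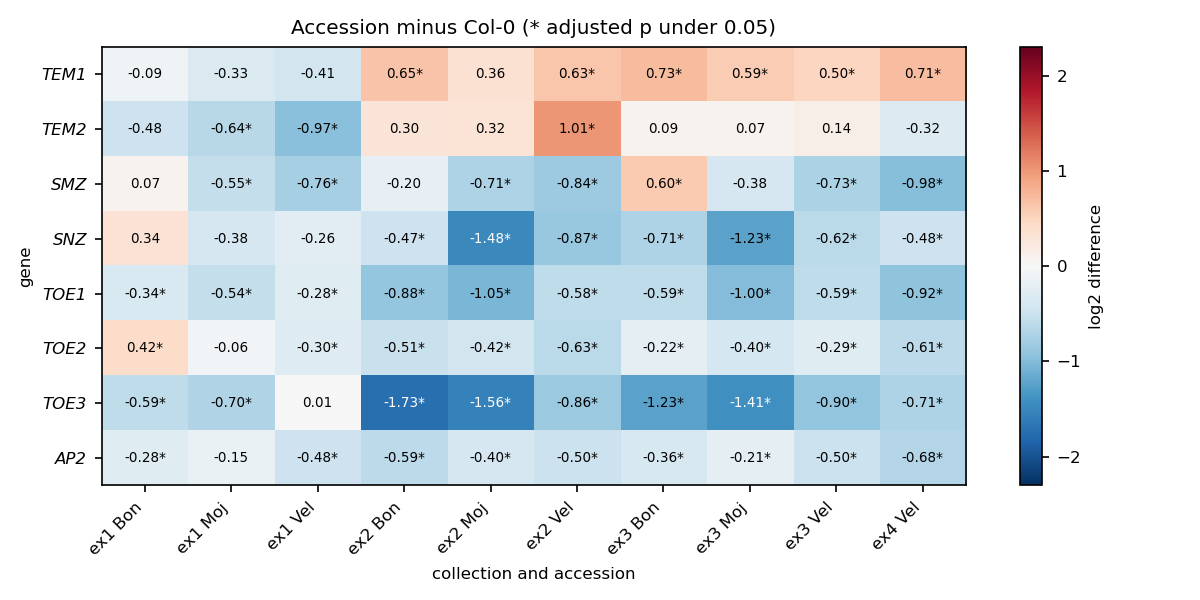
Each accession minus Col-0 (log2 units), in each collection, for each gene, as a colour with its value, starred where the limma adjusted p was under 0.05. TOE1 is lower than Col-0 in all 10 columns, and TEM1 is above 0 in every column after ex1, with Moj ex2 (0.36) not past the threshold.

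In a sum of squares over ex1 to ex3, the largest term was the collection for AP2 (72.1% of the variance), SMZ (57.4%), TEM1 (56.0%), TOE2 (55.8%) and SNZ (53.8%). It was the time of day for TEM2 (58.6%), the accession for TOE3 (53.1%) and the collection with the time of day for TOE1 (44.9%).

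Genes of the same pathway were read beside the 8. Of 19 genes of the age pathway, 13 could be tested, and from ex1 to ex2 6 were called higher and 0 lower in Col-0, 5 and 5 in Bon, 4 and 1 in Moj and 4 and 1 in Vel, beside 58.0%, 68.8%, 70.7% and 70.1% of all genes called in either direction. SPL3, an age pathway factor that promotes flowering, rose by 1.20, 1.24, 1.33 and 1.11 log2 units in Col-0, Bon, Moj and Vel. SPL4 rose by 2.01, 1.79 and 1.60 in the first 3 and was at 0.48 in Vel (limma adjusted p = 0.0612). SPL5, close to SPL3 and SPL4, rose by 1.11, 1.14, 1.11 and 0.57, and SPL10 by 0.65, 0.72, 0.63 and 0.89. SPL2 rose in Col-0 (0.64) and was lower in ex2 in Bon, Moj and Vel (-0.40, -0.51 and -0.50). SPL9 rose in Col-0 (0.39), was lower in Bon (-0.48) and was not called in Moj or Vel, SPL15 rose in Bon (0.38) and Vel (0.29) and was not called in Col-0 or Moj, and SPL11 was called in none (-0.21 to 0.09). The primary transcript MIR172A, at a mean of 0.61 in Bon ex1, fell there by 0.37 (limma adjusted p = 0.0146) and was not called in Col-0 (0.17), Moj (-0.28) or Vel (0.28). MIR172B was not called in this step in any accession (-0.17 to 0.08), and it was at 1.64 in Col-0 ex1 and 0.51 in Bon ex1, as means. MIR172B rose from ex2 to ex3 in Moj by 1.03 (limma adjusted p = 0.00127) and from ex3 to ex4 in Vel by 0.95 (0.00355), and MIR172A from ex3 to ex4 in Col-0 by 1.16 (2.4e-09) and in Vel by 0.39 (0.0361). MIR172C, MIR172D and MIR172E were listed at 0 in 75, 72 and 64 of the 79 libraries. These libraries were made from polyA RNA and hold primary transcripts, not mature miR172.

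Among the genes these proteins repress, 7 of 8 could be tested. FT, the florigen gene, was listed at 0 in all 6 Bon libraries of ex1 and of ex2 and lay between 0.57 and 1.04 in ex3. In Vel ex4 its level was between 1.39 and 2.63, and it rose from ex3 by 1.59 (limma adjusted p = 1.6e-20). From ex2 to ex3 FT rose in Vel by 0.53 and was at 0.01 in Col-0 (adjusted p = 0.982 by limma). In Col-0 its level was 0 to 0.25 in ex3 and 0.49 to 1.83 in ex4. In Moj it was listed at 0 in all 6 libraries of ex2 and lay between 0.25 and 0.72 in ex3. SOC1, which promotes flowering at the shoot tip, rose from ex1 to ex2 in the Spanish accessions (Bon 0.82, Moj 0.96 and Vel 0.77) and fell by 0.35 in Col-0. GA3OX2, a gibberellin synthesis gene that TEM proteins repress, fell from ex1 to ex2 in Col-0, Bon, Moj and Vel (-0.82, -1.53, -0.77 and -0.85). It was listed at 0 in 42 of the 79 libraries. Other genes of the list had higher means in ex2. FUL went from 1.17 to 1.73 in Col-0, 0.78 to 1.91 in Bon, 0.58 to 1.64 in Moj and 1.20 to 1.80 in Vel. TSF went from 0.95 to 1.58 in Col-0, 0.55 to 2.53 in Bon and 0.30 to 2.45 in Moj, and stayed at 0 in Vel. AP1 went from 0 to 0.29, 1.67, 0.91 and 0.19 in Col-0, Bon, Moj and Vel. The list's counts in that step were 2 higher and 2 lower in Col-0, 4 and 1 in Bon, 4 and 2 in Moj and 2 and 2 in Vel, out of 7 tested and beside the same 58.0%, 68.8%, 70.7% and 70.1%.

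Of 12 partners and regulators, all could be tested, and from ex1 to ex2 2 rose and 5 fell in Col-0, 2 and 5 in Bon, 1 and 3 in Moj and 3 and 3 in Vel, again beside 58.0%, 68.8%, 70.7% and 70.1%. FLC, a repressor of flowering, fell in Col-0, Bon, Moj and Vel (-1.59, -1.90, -1.56 and -2.42). RAV1, a relative of the TEM genes with the same pair of domains, fell in Col-0 (-0.59), Moj (-0.38) and Vel (-0.43) and was at -0.19 in Bon (limma adjusted p = 0.203). Of 4 RAV relatives, 2 could be tested. The summed level of 4 root markers, back-transformed, was 18.7 to 55.3 in ex1 and 12.4 to 40.3 in ex2, and its part, like that of the leaf markers, in the falls of SMZ, SNZ and TOE2 was not tested.

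Of the 8 genes, 2 overlap a gene on the other strand, and the library kit does not mark strand. SMZ shares 544 bases with AT3G54980, whose level was 1.27 to 2.36 and which rose from ex1 to ex2 in Col-0, Bon and Vel (0.29, 0.35 and 0.27) where SMZ fell. It was higher in the evening of ex1 (0.45), as SMZ was. TOE3 shares 119 bases with AT5G67170, whose level was 0.94 to 4.05. AT5G67170 was also lower than Col-0 in Moj (-1.23 in ex1, -0.91 in ex2 and -0.32 in ex3). The same held for Bon and Vel in ex2 (-0.36 and -0.42), but not past the threshold in their other collections. From ex1 to ex2 it rose in Col-0 (0.46), as TOE3 did, and in Moj and Vel (0.78 and 0.29), where TOE3 was not called. It was lower in the evening of ex1, ex2 and ex3 (-0.30, -0.98 and -0.26), where TOE3 was higher. The part of either overlap in the values was not tested. The other 6 genes have no overlap in the annotation.

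Over the 28 group means, SMZ and TOE2 had the highest Pearson correlation among the 28 pairs of the 8 genes, 0.877, followed by SMZ and SNZ at 0.699. TEM1 and SNZ had the lowest, -0.695. Groups share accessions, collections and times, so these values describe the table. The tested genes with the patterns most like each member, by Pearson correlation over the same 28 means, were AT4G16430, AT3G22160 and SUC1 for TEM1 (0.837 to 0.861), CDF2, CPK28 and AT5G53570 for TEM2 (0.829 to 0.858) and NTMC2T5.2, SCAR4 and AT3G20200 for SMZ (0.901 to 0.909). They were AT4G24750, HAM3 and PDK1 for SNZ (0.927 to 0.933), HFR1, AT1G53410 and AT1G33230 for TOE1 (0.844 to 0.859) and AT1G62975, AT3G20200 and BAG2 for TOE2 (0.896 to 0.902). For TOE3 they were AT5G50680 and AT5G50580, both named SAE1B, and AT3G09550 (0.911 to 0.917), and for AP2 they were AT5G07580, AT3G05675 and HMGB3 (0.913 to 0.941). How far reads of the SAE1B copies can be told apart was not tested. AT3G20200 stands in the lists of both SMZ and TOE2.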

How the data were processed

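RNA-seq values of rosette pools were used as deposited, in log2 units per gene and library. The authors used FastQC, HISAT2 and StringTie on TAIR10, per the submitters' processing notes, whose versions are not given in the sources used here. For the deposited log2 values the base, an added 1 before the log and quantile normalization were read from the numbers, as no source states them: column totals lay between 65882 and 66017, and upper quartiles were equal. On this scale changes of low genes are understated. The planned log transformation was not needed. No counts are given, so no interval that needs depth is printed.

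The 20871 genes that reached 1 in 3 or more libraries entered a limma 3.58.1 fit (R 4.3.3, data.table version 1.17.8), with a mean per group, 51 residual degrees of freedom, a trend, two-sided tests and Benjamini-Hochberg adjustment over all tested genes in each comparison. The threshold was 0.05, and the percentages of all genes called use it after adjustment. SE is limma's. Contrasts weight groups equally, and F tests compare differences across collections or accessions. The code was tested on simulated data. Plots were drawn with matplotlib 3.10.9, and tables were made in Python 3.11.15 with numpy 2.4.6 and pandas 2.3.3.

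The 8 genes and the gene lists were chosen with earlier results of these data known. All 8 are named whatever their result. From each list up to 3 genes with the smallest adjusted p are named, and SPL and MIR172 genes, FT, SOC1 and FLC whatever their result. TSF, FUL and AP1 are given as means. Likeness takes the 3 tested genes with the highest correlation over group means. Sequences and positions come from RefSeq TAIR10.1, whose nuclear chromosomes are those of TAIR10, and 32835 identifiers matched it. Alternatives were array weights, no trend, no filter, an offset of 0.1, centring, a replicate block, ex1 to ex3 only, the left-out library kept, and each replicate or library left out.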

Additional observations from a re-analysis of the deposited data

Results flagged for a closer look

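The evening difference was not the same in ex1, ex2 and ex3 for 6 of the 8 genes by a limma F test across the 3 collections, beside 71.6% of all genes tested. The adjusted p was 2.1e-19 for TOE1, 4.1e-10 for TEM1, 5.6e-10 for SMZ, 3.0e-09 for AP2, 8.4e-07 for TOE2 and 2.2e-04 for TEM2.

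The evening difference over ex1 to ex3 was not the same in the 4 accessions for 3 genes, beside 28.1% of all genes. The limma adjusted p was 0.00185 for TOE1, 0.0102 for SMZ and 0.0348 for AP2. In ex1 SMZ differed by 2.04 log2 units in Bon, 1.85 in Col-0, 1.13 in Vel and 0.42 in Moj.

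The change from ex1 to ex2 was not the same in the 4 accessions for 7 genes, all but SMZ, beside 51.9% of all genes. The limma adjusted p was 1.9e-06 for TOE2, 2.0e-06 for TEM2, 7.4e-04 for SNZ, 0.00203 for TOE3, 0.00230 for TEM1, 0.0139 for TOE1 and 0.0342 for AP2. For the change from ex2 to ex3 the same limma test called 0 of the 8, beside 34.5% of all genes, with 3 at an unadjusted p under 0.05.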

How the results depend on the processing

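Of the 192 results of the 8 genes in 24 comparisons, 118 passed the threshold, and none changed sign past it under any alternative. Side of the threshold and direction held for 192 when centred or with no trend, 191 with the left-out library kept, 190 with no filter, 188 with an offset of 0.1, 178 with array weights, and 169, 170 and 170 without the libraries of replicate 1, 2 and 3, where 18, 22 and 18 calls were lost. With array weights the count of genes called went to 3 from 1 (Col-0, ex2 to ex3), 6 from 3 (Bon), 3 from 0 (Vel) and 2 from 4 (Moj against Col-0, ex1). Leaving out replicates or single libraries gave 3 instead of 5 for time of day in ex2, 0 to 3 instead of 1 in Col-0, 1 instead of 2 in Moj and 0 to 1 instead of 0 in Vel for ex2 to ex3, and 1 instead of 2 in Col-0 and 0 to 1 instead of 0 in Vel for ex3 to ex4. Against Col-0 in ex1 it gave 1 to 4 instead of 4 in Bon, 1 to 4 in Moj and 3 to 5 instead of 5 in Vel. Of all genes, 1438 changed from ex2 to ex3 in Vel, 3733 with array weights, and 375 to 711 when each replicate number was left out in turn; 4058 in Col-0 became 1242 and 7722 in Moj became 4012 without replicate 2, as 6400 became 2463 for Vel ex3 to ex4, and 9162 (Bon) and 9156 (Moj) against Col-0 in ex1 became 5949 and 5843 without replicate 3. The causes were not tested. The main fit did not pair libraries by replicate number, and whether the numbers pair libraries was not tested. Over 37 morning and evening pairs the correlation of deviations ran from -0.269 to 0.405, with a median of 0.0541 and 12 over 0.1. A replicate block left 187 of 192 results the same and moved none of the 24 counts by over 1.5 times (7 instead of 6 for time of day in ex3, where TOE1 passed at an adjusted p of 0.0405 by limma); it ended the TOE2 call in Col-0 from ex1 to ex2 (0.0506) and made TEM1 a call in Vel ex1 (0.0293). Library medians lay between 3.477 and 3.485 before centring, so centring could move little and is a weak check. Depth is unknown, which limits what low values can show.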
